A study of Homo sapiens with 12 samples.

Results

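The eIF2alpha kinases, a pair of phosphatase subunits and the sensors of the endoplasmic reticulum (ER) and the mitochondria start the stress responses that pass through the translation factor eIF2 and the unfolded protein response (UPR). The mRNAs of 10 such genes were followed here: the eIF2alpha kinases EIF2AK1, EIF2AK2, EIF2AK3 and EIF2AK4, the regulatory phosphatase subunits PPP1R15A and PPP1R15B, the ER sensors ERN1 and ATF6 with the transcription factor XBP1, and the mitochondrial protease OMA1. The rule takes these genes by symbol, and all 10 were found among the 36601 genes of the table of normalized counts. Phosphorylation of eIF2alpha lowers protein synthesis as a whole and favours the translation of a few mRNAs such as that of ATF4, and the phosphatase subunits bring protein phosphatase 1 to eIF2alpha to undo it. In the UPR, ERN1 (IRE1alpha) cuts a short intron out of the XBP1 mRNA in the cytosol, ATF6 travels to the Golgi and is cut into a free transcription factor, and EIF2AK3 (PERK) phosphorylates eIF2alpha. OMA1 is activated when the inner mitochondrial membrane loses its potential and cleaves OPA1 and DELE1, and a DELE1 fragment activates EIF2AK1 (HRI).

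KP4 is a human pancreatic ductal carcinoma cell line, and the labels give its genotype as WT in every sample. Its cells were treated for 24 h with DMSO (the vehicle), with 10 mM metformin (Met), with 5 nM FK866 (FK), or with both at these doses (Met+FK). Metformin blocks respiratory complex I, and FK866 blocks NAMPT, the enzyme that salvages NAD from nicotinamide. RNA depleted of ribosomal RNA was sequenced in 3 libraries per treatment, 12 in all, and between 30667735 and 41052203 read pairs were counted on genes in each. A normalized count is the read pairs of a gene divided by a size factor of the library. The labels number the 3 libraries of a treatment as replicates but do not say that they came from separate cultures, so p-values measure the spread between these libraries only. Since these are bulk samples of treated cultures, fewer cells of a kind and less RNA per cell cannot be told apart.

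Of 8 epithelial markers, EPCAM had a mean under 10 normalized counts, and the sum of the list, most of it KRT18, was between 21550 and 22414 in DMSO, 12353 and 14999 in Met, 14279 and 18544 in FK, and 12363 and 15397 in Met+FK. The sum of 4 mesenchymal markers, nearly all VIM, was between 115860 and 125860 in DMSO and between 98542 and 113140 in the other groups. The sums hide markers that moved the other way. In the test described below, 1 of 7 epithelial markers tested was higher in Met than in DMSO (CDH1, means 61.4 and 28.5) and 3 were lower. Of the 4 mesenchymal markers 1 was higher (ZEB1, 1033 and 681) and 1 lower (VIM), against 24.9% and 25.9% of all genes. Of 12 markers of acinar, endocrine, immune, endothelial and fibroblast cells, 9 had a mean under 10, INS, CPA1 and DCN were at 0 in every library, and the sum was between 1286.9 and 1383.7 in DMSO and between 986 and 1347 in the other groups. The other 3, CD68, PTPRC and COL1A1, made up nearly all of that sum. Their means were 944, 244 and 145 in DMSO, 776, 161 and 65.3 in Met, 754, 244 and 274 in FK, and 840, 134 and 70.6 in Met+FK. The part of these shifts in the results below was not tested.

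Metformin raised the mRNAs of PPP1R15A, PPP1R15B, ERN1, ATF6, XBP1 and OMA1 and lowered that of EIF2AK1, while those of the other 3 kinases did not pass the test. The test was limma-trend on log2(normalized count + 1) over 15376 genes, a scale on which the change of low genes is understated, and a gene passed at a Benjamini-Hochberg adjusted p under 0.05. Thus 6 of 10 members were higher in Met than in DMSO, against 24.9% of all genes tested, and 1 of 10 was lower, against 25.9%. A gene was called a DEG when its fold change was also over 1.5, and PPP1R15A, ERN1, ATF6 and XBP1 were DEGs, against 12.8% of all genes that were DEGs with higher values. With a trend on GC content and length removed from each library, ATF6 passed but was under the fold limit (log2 fold change 0.48 in place of 0.75), and PPP1R15B (0.23 in place of 0.39) and OMA1 (0.30 in place of 0.46) kept their calls with values lower by more than 1.5 times. The 7 calls at an adjusted p under 0.05 were kept in each of the 12 fits that left out 1 library. The median log2 fold change of the members was 0.43, and that of all genes 0.012. When every library was scaled to the same total, the median of all genes moved to 0.13, EIF2AK1 no longer passed, and EIF2AK2 and EIF2AK4 passed as higher.

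**Figure D1:**
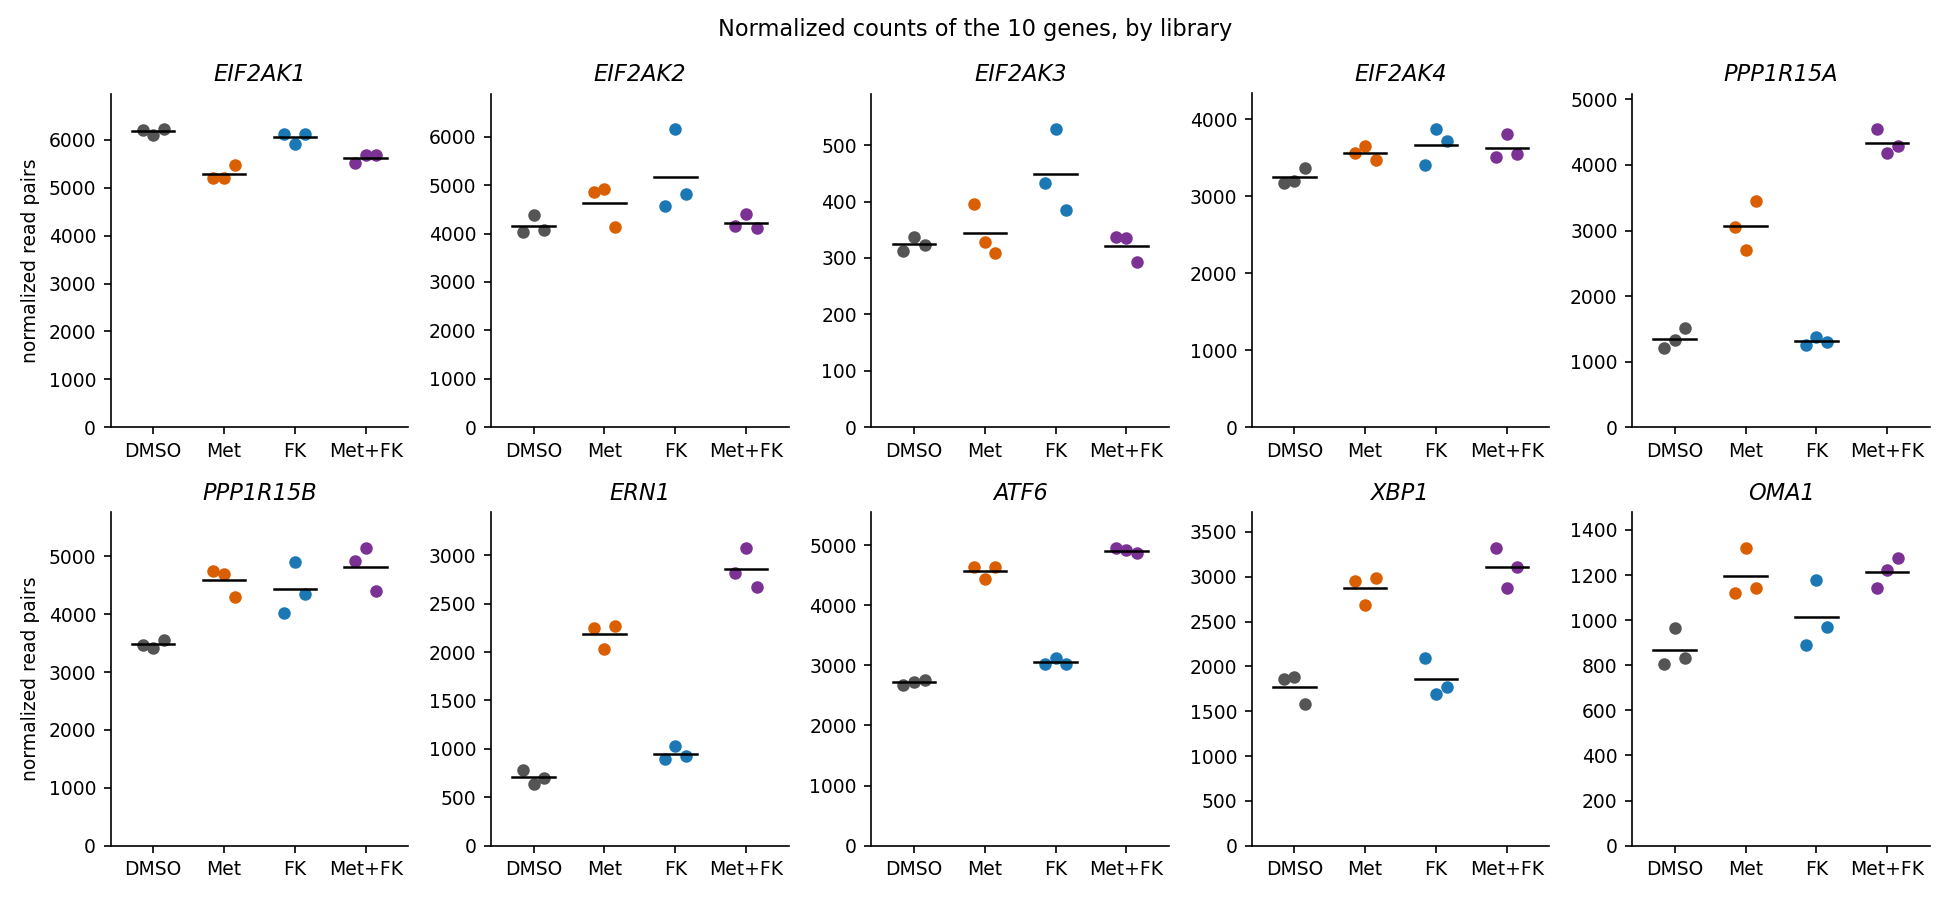
Normalized counts (vertical axes, from 0, scaled separately for each gene) of the 10 genes in the 12 libraries, 3 per treatment. Points are libraries in the order of their replicate number and bars are group means. For PPP1R15A, ERN1, ATF6 and XBP1 every library with metformin lies above every library without it, as for ERN1, where the highest FK library is at 1027 and the lowest Met library at 2031. The share of all genes that separate in this way is not given here.

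PPP1R15A and PPP1R15B encode the alternative targeting subunits of the eIF2alpha phosphatase, the stress-induced GADD34 and the constitutive CReP. The 300 bases around the annotated start of each gene (250 before and 50 after) were searched on both strands for elements that factors of these responses are known to bind. RefSeq (GRCh38.p14) had such a window for 9 of the 10 members, all but EIF2AK1. The stretches below show where the promoters of both subunits hold such letters, in capitals. PPP1R15A is on the + strand and its stretch is chr19:48872254-48872385, with TGACGT from −152 to −147 and the palindrome TGACGTCA from −58 to −51, counted from +1 at the start. PPP1R15B is on the − strand and its stretch is chr1:204411898-204412059, with TGATGCAA from −227 to −220 and TGACGT from −101 to −96.
PPP1R15A: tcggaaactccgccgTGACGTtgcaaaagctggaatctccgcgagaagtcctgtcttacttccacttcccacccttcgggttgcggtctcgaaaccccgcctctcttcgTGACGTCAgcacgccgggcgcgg
PPP1R15B: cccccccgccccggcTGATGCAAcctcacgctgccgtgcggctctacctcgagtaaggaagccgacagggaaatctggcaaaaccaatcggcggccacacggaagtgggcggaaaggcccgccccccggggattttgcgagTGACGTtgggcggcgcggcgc
The C/EBP-ATF element TGATGNAA was in 3.62% of 35116 such windows, the cAMP response element TGACGTCA in 1.85%, and its shorter form TGACGT, which the longer one contains, in 7.98%. A match is a description of the letters and not a measured site.

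PPP1R15A (chromosome 19 from 48872421 to 48876058) had 1213, 1327 and 1508 normalized counts in the DMSO libraries and 3060, 2697 and 3445 in the Met libraries. It had 1256, 1371 and 1301 in FK, and 4545, 4185 and 4292 in Met+FK. The FK libraries lay within the range of DMSO, the Met libraries above both, and the Met+FK libraries above the Met libraries, with no overlap. Here and below, ranges that do not overlap describe single genes, with no share of all genes beside them. Against DMSO the log2 fold change was 1.18 in Met (standard error 0.098, adjusted p = 2.89e-07) and 1.69 in Met+FK (0.098, adjusted p = 6.72e-09). In FK it was −0.04 (95% interval −0.25 to 0.17).

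PPP1R15B (chromosome 1 from 204403381 to 204411817) had 3471, 3416 and 3560 normalized counts in DMSO and 4753, 4699 and 4294 in Met. In FK it had 4028, 4908 and 4354, and in Met+FK 4911, 5147 and 4399. All 9 libraries with a drug lay above all DMSO libraries, and the 3 drug groups overlapped each other. It rose with Met by 0.39 (standard error 0.084, adjusted p = 0.00126), with Met+FK by 0.47 (0.084, adjusted p = 3.23e-04) and with FK by 0.34 (0.084, adjusted p = 0.0225) on the log2 scale.

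The balance of both subunits, which was not tested as a ratio, differed between the treatments in the normalized counts. Per kilobase of the canonical transcript, the level of PPP1R15A over that of PPP1R15B was 0.866 ± 0.083 (SD, n = 3) in DMSO, 1.51 ± 0.262 in Met, 0.664 ± 0.0366 in FK and 2.02 ± 0.186 in Met+FK. The 4 groups did not overlap: the ratio was between 0.625 and 0.698 in FK, 0.782 and 0.948 in DMSO, 1.28 and 1.80 in Met, and 1.82 and 2.18 in Met+FK. The PPP1R15B mRNA was thus the higher of both per kilobase in every library without metformin, and the PPP1R15A mRNA in every library with it. Lengths of all annotated exons in place of the canonical transcript gave 1.05, 1.83, 0.807 and 2.46, so which of them is higher in DMSO depends on the length used. The GC content is 59.0% for PPP1R15A and 43.4% for PPP1R15B. In FK against DMSO their log2 fold changes were −0.04 and 0.34, but 0.19 and 0.17 with the GC and length trend removed. The lower ratio in FK thus depends on that trend. In Met against DMSO they were 1.38 and 0.23 with the trend removed.

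**Figure D2:**
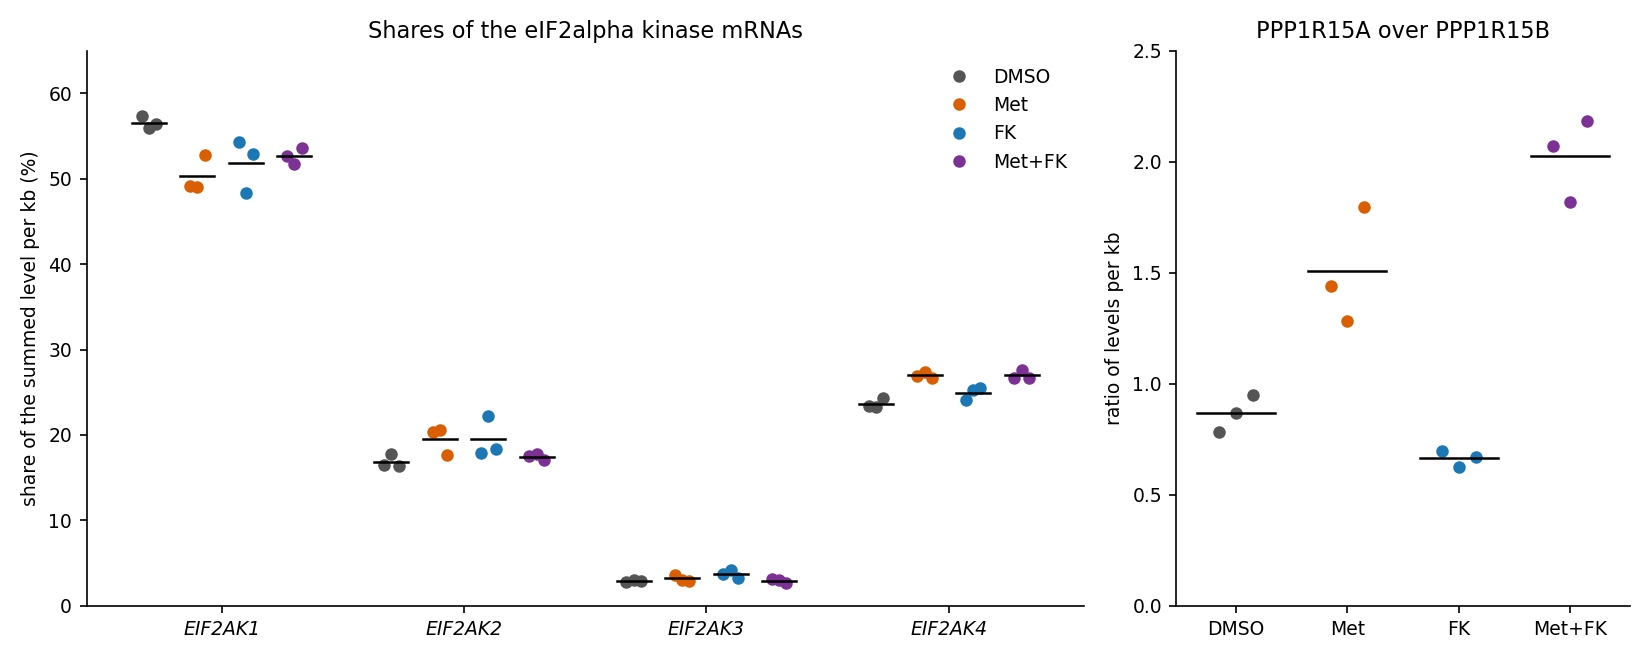
Left, share of each kinase in the summed level per kilobase of the 4 eIF2alpha kinase mRNAs (vertical axis, percent). Right, ratio of the PPP1R15A level to the PPP1R15B level per kilobase (vertical axis, no unit). Points are libraries, 3 per treatment, and bars group means. The EIF2AK1 share lies between 55.9% and 57.4% in DMSO and below that in every other library, and the ratio is at 1.28 or more only in libraries with metformin. Neither measure was corrected for the GC and length trend.

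ERN1 encodes IRE1alpha, the ER membrane kinase and endonuclease that splices XBP1. ERN1 (chromosome 17 from 64039142 to 64130819) had 781, 635 and 703 normalized counts in DMSO and 2252, 2031 and 2274 in Met. It had 892, 1027 and 924 in FK and 2814, 3078 and 2669 in Met+FK. The 4 groups did not overlap, in the order DMSO, FK, Met and Met+FK. ERN1 rose 3.10-fold with Met (log2 1.63, standard error 0.095, adjusted p = 1.22e-08) and 4.04-fold with Met+FK (2.02, 0.095, adjusted p = 9.17e-10). These were the largest log2 fold changes among the 10 members in both comparisons. With FK it rose by 0.43 on the log2 scale (0.095, adjusted p = 0.0179).

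XBP1 mRNA is the substrate of ERN1. The intron that IRE1alpha removes is 26 bases long. In GENCODE 44, 1 transcript has chr22:28796128-28796153 on the − strand of hg38 as an intron, and another reads through these bases. The annotated intron is shown in capitals in chr22:28796116-28796165, between 12 bases of exon on each side. A G is its first base and also the base after it, so an intron placed 1 base further along leaves the same spliced letters. The annotation thus does not fix the cut sites of IRE1alpha.
XBP1 intron: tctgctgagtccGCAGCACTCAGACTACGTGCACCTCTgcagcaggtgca
The deposited counts are sums over the gene, so a read pair from spliced XBP1 and one from unspliced XBP1 add the same to them, and splicing was not measured here.

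XBP1 (chromosome 22 from 28794555 to 28800597) had 1857, 1886 and 1585 normalized counts in DMSO and 2948, 2683 and 2982 in Met. It had 2099, 1695 and 1775 in FK and 3324, 2879 and 3110 in Met+FK. The FK libraries overlapped DMSO, and the 6 libraries with metformin lay above the 6 without it. The log2 fold change was 0.70 in Met (standard error 0.097, adjusted p = 4.08e-05), 0.81 in Met+FK (0.097, adjusted p = 8.31e-06) and 0.06 in FK (95% interval −0.15 to 0.27).

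ATF6 (chromosome 1 from 161766320 to 161964070) is made as a membrane protein of the ER and becomes a transcription factor after the site-1 and site-2 proteases cut it. It had 2665, 2729 and 2762 normalized counts in DMSO, 4637, 4431 and 4638 in Met, 3029, 3125 and 3024 in FK, and 4956, 4912 and 4861 in Met+FK. The groups did not overlap, and the spread within each was the smallest relative to its mean among the members that were DEGs. ATF6 rose by 0.75 with Met (standard error 0.061, adjusted p = 2.49e-07) and by 0.85 with Met+FK (0.061, adjusted p = 5.05e-08) on the log2 scale. In FK its log2 fold change of 0.17 had an adjusted p of 0.0567, and of 0.0173 with the replicate number as a block, but was −0.11 (adjusted p = 0.363) with the GC and length trend removed.

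The promoters of XBP1 and ATF6 each held 1 kind of the elements searched, shown in capitals. The XBP1 stretch is chr22:28800588-28800636 on the − strand and holds the ER stress element (CCAAT and CCACG with 9 bases between) from −52 to −34. The ATF6 stretch is chr1:161766192-161766227 on the + strand and holds TGACGT from −113 to −108.
XBP1: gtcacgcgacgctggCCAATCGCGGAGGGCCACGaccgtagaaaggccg
ATF6: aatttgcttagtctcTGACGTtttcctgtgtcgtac
The ER stress element, which ATF6 is known to bind with NF-Y, was in 27 of the 35116 windows (0.0769%). The unfolded protein response element TGACGTGG was in 0.729% of all windows and in none of the 9 members, and the windows of ERN1, OMA1, EIF2AK3 and EIF2AK4 held no match to any element searched.

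OMA1 (chromosome 1 from 58415384 to 58546802) had 807, 964 and 831 normalized counts in DMSO, 1121, 1321 and 1143 in Met, 890, 1178 and 971 in FK, and 1140, 1221 and 1276 in Met+FK. The libraries with metformin lay above DMSO, while FK overlapped DMSO and both other groups. OMA1 rose by 0.46 with Met (standard error 0.11, adjusted p = 0.0028) and by 0.49 with Met+FK (0.11, adjusted p = 0.00188) on the log2 scale. In FK its log2 fold change was 0.22 (adjusted p = 0.144, or 0.0263 with the block), and −0.03 (adjusted p = 0.835) with the GC and length trend removed. DELE1, the OMA1 substrate that links it to EIF2AK1 and was singled out after its values were seen, had 2730 ± 130 (SD, n = 3) normalized counts in DMSO and 2976 ± 290 (SD, n = 3) in Met, a log2 fold change of 0.12 (adjusted p = 0.22). In Met+FK it had 3250 ± 134 (SD, n = 3) and passed as higher than in DMSO (0.25, adjusted p = 0.0162). In FK its log2 fold change was −0.04 (adjusted p = 0.743).

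Among the kinases, EIF2AK1 (HRI), which also senses heme, had the highest level. In DMSO its level per kilobase of canonical transcript was 1401, followed by EIF2AK4 with 586, EIF2AK2 with 417 and EIF2AK3 with 71.4. The ranges of these 4 levels did not overlap. EIF2AK1 made up 56.6% ± 0.734 (SD, n = 3) of the summed kinase level in DMSO, 50.3% ± 2.13 in Met, 51.8% ± 3.14 in FK and 52.7% ± 0.911 in Met+FK. All 9 libraries with a drug lay between 48.3% and 54.3%, below the DMSO range of 55.9% to 57.4%. In FK against DMSO the log2 fold changes of EIF2AK1, EIF2AK2, EIF2AK3 and EIF2AK4 were −0.03, 0.30, 0.46 and 0.17. With the GC and length trend removed they were −0.08, −0.08, 0.32 and 0.14. The shares were not computed with that trend removed. EIF2AK3 held the smallest share, 2.88% ± 0.104 in DMSO and 3.72% ± 0.487 in FK. With lengths of all annotated exons EIF2AK1 and EIF2AK3 kept the top and the bottom place among the kinases, and EIF2AK2 and EIF2AK4 changed places.

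EIF2AK1 (chromosome 7 from 6022247 to 6059175) had 6209, 6108 and 6223 normalized counts in DMSO and 5202, 5196 and 5468 in Met. It had 6127, 5907 and 6123 in FK and 5513, 5691 and 5690 in Met+FK. The Met libraries were the lowest, the Met+FK libraries lay between them and the rest, and FK overlapped DMSO. On the log2 scale EIF2AK1 fell by 0.22 with Met (standard error 0.059, adjusted p = 0.00543), a call lost with the libraries scaled to the same total (−0.10, adjusted p = 0.145). In Met+FK the log2 fold change was −0.13 (adjusted p = 0.0696), which passed with the block (adjusted p = 0.0299) and with the GC and length trend removed (−0.20, adjusted p = 0.00125). The gene shares 532 bases with AIMP2 on the opposite strand, which had a mean of 2165, and the strand setting of the counting is not given in the sources used here.

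EIF2AK4 (chromosome 15 from 39934115 to 40035591) encodes GCN2, which uncharged tRNA and stalled ribosomes activate. Its normalized counts were 3170, 3197 and 3369 in DMSO, 3568, 3647 and 3471 in Met, 3405, 3871 and 3716 in FK, and 3507, 3807 and 3555 in Met+FK. Every library with a drug lay above every DMSO library, but the differences were small. The log2 fold changes of 0.13 in Met (adjusted p = 0.123), 0.17 in FK (adjusted p = 0.0796) and 0.16 in Met+FK (adjusted p = 0.0714) did not pass. In FK it passed with the replicate block (adjusted p = 0.0242), and in Met with the libraries scaled to the same total (0.26, adjusted p = 0.0091). In Met+FK it passed with the same total (0.24, adjusted p = 0.0127), with the block (adjusted p = 0.0265) and in edgeR (adjusted p = 0.0313).

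EIF2AK3 (chromosome 2 from 88556741 to 88627464) encodes PERK, the ER kinase, and had the lowest counts of the members. They were 312, 337 and 323 in DMSO, 396, 329 and 308 in Met, 433, 528 and 385 in FK, and 337, 335 and 293 in Met+FK. The 3 FK libraries lay above DMSO and Met+FK, and overlapped Met at its highest library. EIF2AK3 rose by 0.46 with FK (standard error 0.13, adjusted p = 0.0293), and was lower in Met+FK than in FK (−0.47, 0.13, adjusted p = 0.00783). In Met against DMSO its log2 fold change was 0.08 (95% interval −0.19 to 0.35), and in Met+FK −0.01 (−0.28 to 0.26).

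EIF2AK2 (chromosome 2 from 37099210 to 37157065) encodes PKR, which double-stranded RNA activates and interferon induces. Its promoter is shown for the interferon element (GAAA and GAAA with 2 bases between, in 3.57% of all windows), in capitals from −6 to 4 in chr2:37156962-37157001 on the − strand.
EIF2AK2: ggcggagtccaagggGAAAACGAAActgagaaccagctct
Its normalized counts were 4033, 4383 and 4075 in DMSO, 4854, 4918 and 4128 in Met, 4561, 6157 and 4814 in FK, and 4150, 4408 and 4107 in Met+FK. FK replicate 2 stood above all others, and Met replicate 3 fell within the DMSO range. EIF2AK2 passed in FK against DMSO (0.30, standard error 0.10, adjusted p = 0.0487) and as lower in Met+FK against FK (−0.28, 0.10, adjusted p = 0.0376). Without FK replicate 2 these were 0.17 (adjusted p = 0.229) and −0.15 (adjusted p = 0.168). Its GC content is low, at 38.5%, and its direction depended on a GC and length trend in the libraries. With that trend removed, its log2 fold changes against DMSO were −0.19 in Met (adjusted p = 0.0117), −0.08 in FK (adjusted p = 0.423) and −0.27 in Met+FK (adjusted p = 9.56e-04).

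With FK866 alone, the log2 fold changes of the members lay between −0.04 and 0.46. In FK, 4 of 10 members were higher than in DMSO (EIF2AK2, EIF2AK3, PPP1R15B and ERN1), against 11.3% of all genes tested, and 0 were lower, against 9.84%. At an unadjusted p under 0.05 limma-trend gave 6 higher and 0 lower, against 6488 of the 15376 genes tested in either direction. On the recovered read pairs edgeR and DESeq2 passed 5 each after adjustment, against 19.7% and 30.8% of the genes they tested. None of them reached a fold of 1.5. The median log2 fold change of the members was 0.20, and that of all genes −0.016. Single libraries decided these calls, and of the 12 fits that left out 1 library EIF2AK2 passed in 3, EIF2AK3 and PPP1R15B in 9 each and ERN1 in 10. Without FK replicate 2 or without DMSO replicate 3, 0 members passed, without DMSO replicate 1 only ERN1 did, and with the 6 libraries of DMSO and FK alone 0 did. Library values also followed the GC content of genes. The log2 values were centred for each gene over the 12 libraries, so a slope on GC is relative to the mean library. Per 10 points of GC the centred value rose by 0.14 ± 0.084 (SD over 3 libraries) in DMSO, and in FK the slope was −0.089 ± 0.14. With the trend on GC content and length removed, PPP1R15B (0.17, adjusted p = 0.0393) and ERN1 (0.43, adjusted p = 0.00172) passed, and EIF2AK3 did not (0.32, adjusted p = 0.0538), 2 of 10 members against 9.4% of all genes. With the replicate number as a block 7 members passed, the 3 others being EIF2AK4, ATF6 and OMA1, against 44.6% of all genes in that fit.

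**Figure D3:**
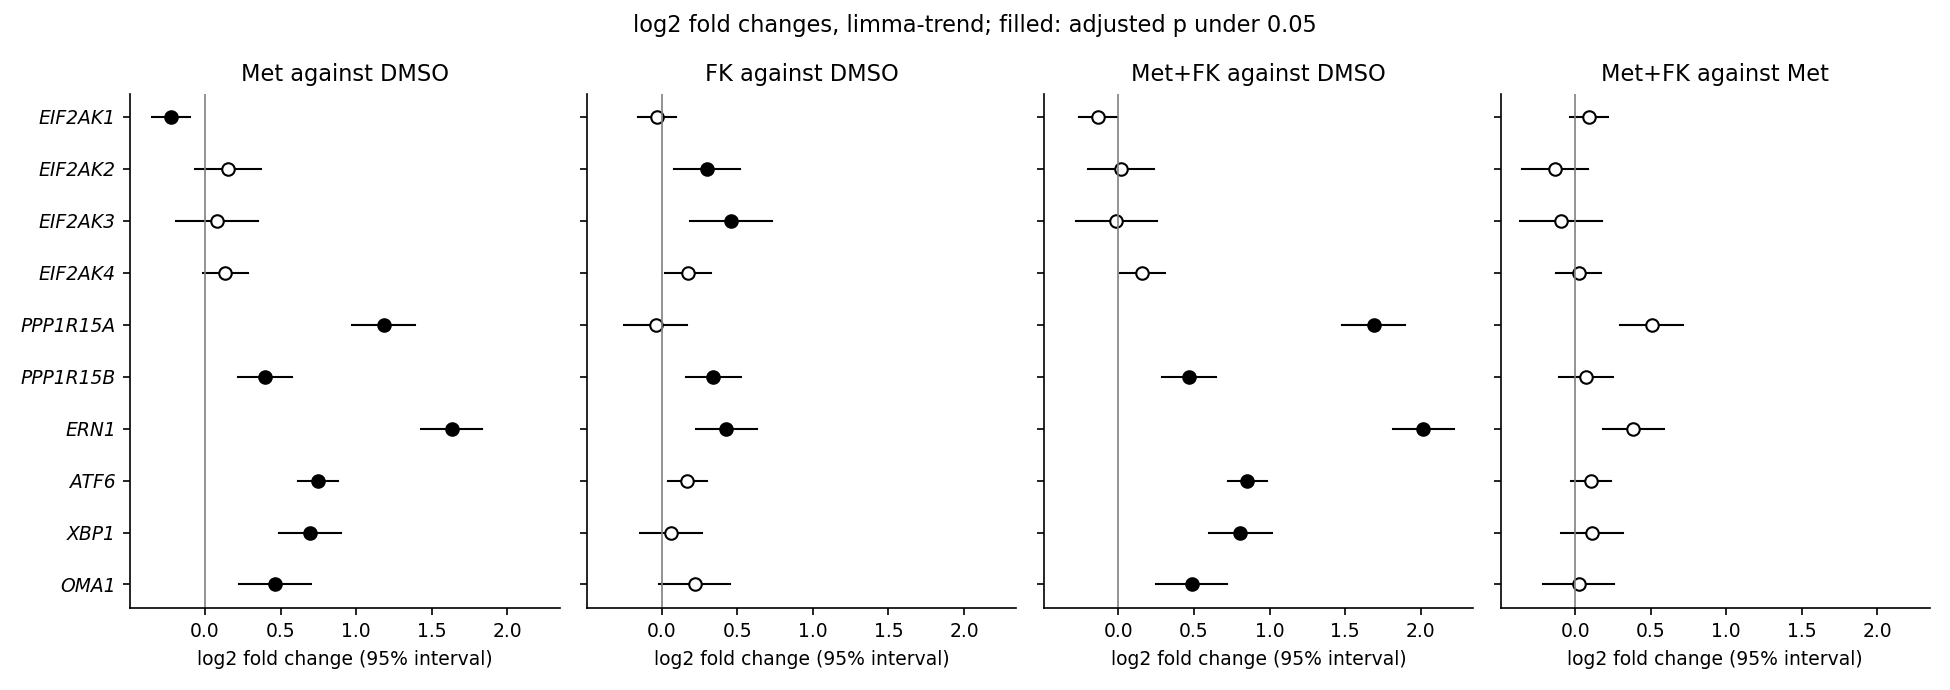
log2 fold changes (horizontal axis) of the 10 genes in 4 comparisons, with 95% intervals from limma-trend over 12 libraries. Filled points passed at an adjusted p under 0.05, open points did not, and the grey line marks 0. The largest values are those of ERN1, at 1.63 in Met and 2.02 in Met+FK against DMSO, and no point is filled in Met+FK against Met.

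With both drugs the same 6 genes were higher than in DMSO as with metformin alone, 6 of 10 members against 26.1% of all genes tested. As lower, 0 members passed, against 26.1% of all genes. At an unadjusted p under 0.05, 1 member was lower (EIF2AK1). In either direction 8 members were under that limit, against 8874 of the 15376 genes tested. In either direction edgeR passed 7 members and DESeq2 6, against 51.9% and 51.3% of all genes, and 8 each passed with the block and with the GC and length trend removed, against 61.1% and 60.4%. PPP1R15A, ERN1, ATF6 and XBP1 were DEGs again, against 13.7% of all genes. Both comparisons share the DMSO libraries, so their values are given side by side and were not set against each other as independent. The log2 fold changes in Met and Met+FK were 1.18 and 1.69 for PPP1R15A, 1.63 and 2.02 for ERN1, 0.75 and 0.85 for ATF6, 0.70 and 0.81 for XBP1, 0.46 and 0.49 for OMA1, and 0.39 and 0.47 for PPP1R15B.

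Adding FK866 to metformin raised no member past the threshold. In Met+FK against Met, 0 members were higher, against 0.0911% of all genes tested, and 0 lower, against 0.0065%. At an unadjusted p under 0.05 limma-trend gave 2 members, PPP1R15A and ERN1, against 1051 of the 15376 genes tested. After adjustment edgeR passed 0, against 0.104% of all genes, and DESeq2 passed the same 2, against 0.597%. On the log2 scale PPP1R15A differed by 0.51 (standard error 0.098, adjusted p = 0.0686), with every Met+FK library above every Met library. It passed with the replicate block (adjusted p = 0.00742, against 0.78% of all genes), in DESeq2 (0.00175), with the GC and length trend removed (0.0166, against 1.07% of all genes) and with the 6 libraries alone (0.0170), as well as without Met replicate 3 (0.0473) or without FK replicate 2 (0.0273). ERN1 had 0.38 (0.095, adjusted p = 0.231), also with no overlap, and passed in DESeq2 (0.0323) and with the GC and length trend removed (0.0206), but not with the block (0.0577). The other 8 members had log2 fold changes between −0.13 and 0.11.

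Against FK, 4 members were higher in Met+FK (PPP1R15A by 1.73, ERN1 by 1.59, XBP1 by 0.75 and ATF6 by 0.68 on the log2 scale), against 20.5% of all genes. EIF2AK2 and EIF2AK3 were the 2 lower, against 21.7%, and kept the call in 8 and 12 of the 12 fits without 1 library. The EIF2AK2 call was also lost with the libraries scaled to the same total (−0.22, adjusted p = 0.107) and with the compared libraries alone (adjusted p = 0.0613). OMA1 (0.27, adjusted p = 0.0638) passed as higher with the block (adjusted p = 0.00674), the same total (0.0313), the GC and length trend removed (0.41, adjusted p = 1.27e-04) and without FK replicate 2 (0.00729). Between the single drugs, the same 4 genes were higher in Met than in FK, against 17.2% of all genes, with log2 fold changes of 1.22, 1.21, 0.63 and 0.58 in that order. EIF2AK1 (−0.19, adjusted p = 0.0179) and EIF2AK3 (−0.38, adjusted p = 0.0301) were lower in Met than in FK, 2 of 10 against 19.5%, with the call kept in 9 and 8 of the 12 fits, and the ranges of EIF2AK3 overlapped. Neither passed with the libraries scaled to the same total (−0.10, adjusted p = 0.207, and −0.28, adjusted p = 0.105). OMA1 (0.24, adjusted p = 0.0962) passed as higher in Met than in FK under the same 4 alternatives, with adjusted p between 9.73e-04 and 0.0275.

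The interaction asks whether FK866 acted differently in metformin-treated cells, as (Met+FK − Met) − (FK − DMSO). It passed in 0 members, against 0.0065% of all genes for a higher and 0.052% for a lower response. At an unadjusted p under 0.05 there were 4 members, against 4695 of the 15376 genes tested. After adjustment 0 passed in edgeR (against 0.065% of all genes) and 1 in DESeq2 (against 6.2%). PPP1R15A had the largest positive term, 0.55 (standard error 0.14, adjusted p = 0.109). EIF2AK3 (−0.55, 0.18, adjusted p = 0.111), EIF2AK2 (−0.43, 0.14, adjusted p = 0.112) and PPP1R15B (−0.27, 0.12, adjusted p = 0.144) had negative ones. With the replicate block these 4 passed, with adjusted p of 0.00732, 0.0156, 0.0108 and 0.0467 in that order, but so did 32% of all genes in that fit. With the GC and length trend removed and no block, the terms were 0.27, −0.40, 0.01 and −0.08, and 0 passed, against 0.529% of all genes. PPP1R15A and EIF2AK2 also passed without FK replicate 1 (adjusted p = 0.0455 and 0.0437). In ERN1, ATF6 and XBP1 the terms were −0.04 (95% interval −0.33 to 0.24), −0.07 (−0.25 to 0.12) and 0.05 (−0.24 to 0.34).

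Genes around the members were followed in lists. Among 20 direct partners of the members, such as kinase activators, phosphatase catalytic subunits and proteases, 19 were tested (ERN2, a relative of ERN1, had too few counts). With Met 3 rose, 7 fell and 9 did not pass, with a median log2 fold change of −0.083, against the 24.9% and 25.9% and the median of 0.012 of all genes given above. Scaled to the same total, 7 were higher and 5 lower. HSPA5 (BiP), the ER chaperone that holds the UPR sensors inactive, had 21250 ± 1632 (SD, n = 3) normalized counts in DMSO, reached 53472 ± 5341 (SD, n = 3) in Met and so rose by 1.33 on the log2 scale (adjusted p = 5.18e-08). IMPACT, an inhibitor of the activation of EIF2AK4 through GCN1, rose by 0.70 (adjusted p = 9.67e-04). WFS1, an ER membrane protein, fell by 0.77 (adjusted p = 5.80e-05), and PPP1CA, a catalytic subunit of the phosphatase, fell by 0.55 (adjusted p = 1.48e-04). In FK 8 partners were higher and 1 lower, against 11.3% and 9.84% of all genes, and with the GC and length trend removed 2 and 0.

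Of the 8 subunits of eIF2, the substrate of the kinases, and its exchange factor eIF2B, 2 rose and 4 fell with Met, against 24.9% and 25.9% of all genes. EIF2S2 rose by 0.86 and EIF2S3 by 0.25, the beta and gamma subunits of eIF2, while EIF2B5 fell by 0.45 and EIF2B1 by 0.41. In FK 1 was higher and 1 lower, against 11.3% and 9.84%. Downstream of eIF2alpha, 21 of 22 genes of the ATF4 branch were higher in Met, against 24.9% of all genes, with a median of 1.41, from WARS (0.44), a tRNA synthetase, to NUPR1 (3.01) and DDIT3 (2.82), which encode stress-induced transcription regulators. SHMT2, a mitochondrial serine enzyme, did not pass (−0.07). In FK 11 of the 22 were higher and 0 lower, against 11.3% and 9.84% of all genes, with a median of 0.33.

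Of 12 XBP1 branch targets, 3 rose and 4 fell with Met, close to the 24.9% and 25.9% of all genes, with a median of −0.057 that was 0.065 with the libraries scaled to the same total. DNAJB9, an ER co-chaperone, rose by 1.05 and HERPUD1, which serves degradation of ER proteins, by 0.76, whereas SRPRB, a subunit of the signal recognition particle receptor, fell by 0.55 and SPCS3, a signal peptidase subunit, by 0.50. Of 10 ATF6 branch targets, 3 rose and 6 fell with Met, against the same 24.9% and 25.9%, with a median of −0.47. HSPA5 and SEL1L, an adaptor of ER-associated degradation (0.89), rose, while SDF2L1 fell by 1.40 and CALR, the chaperone calreticulin, by 0.92. CALR had 35417 ± 2415 (SD, n = 3) normalized counts in DMSO and 18789 ± 1466 (SD, n = 3) in Met, and SDF2L1 523 ± 14.7 and 199 ± 34.3. In FK, 7 XBP1 targets were higher and 0 lower (5 and 1 with the GC and length trend removed), and 3 ATF6 targets were higher and 0 lower, against 11.3% and 9.84% of all genes. DNAJB9 had 301 ± 24.9 normalized counts in DMSO, 632 ± 110 in Met, 581 ± 121 in FK and 793 ± 159 in Met+FK. DNAJC3, EIF2S1, HSPA5 and PDIA6 stand in 2 lists each.

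**Figure D4:**
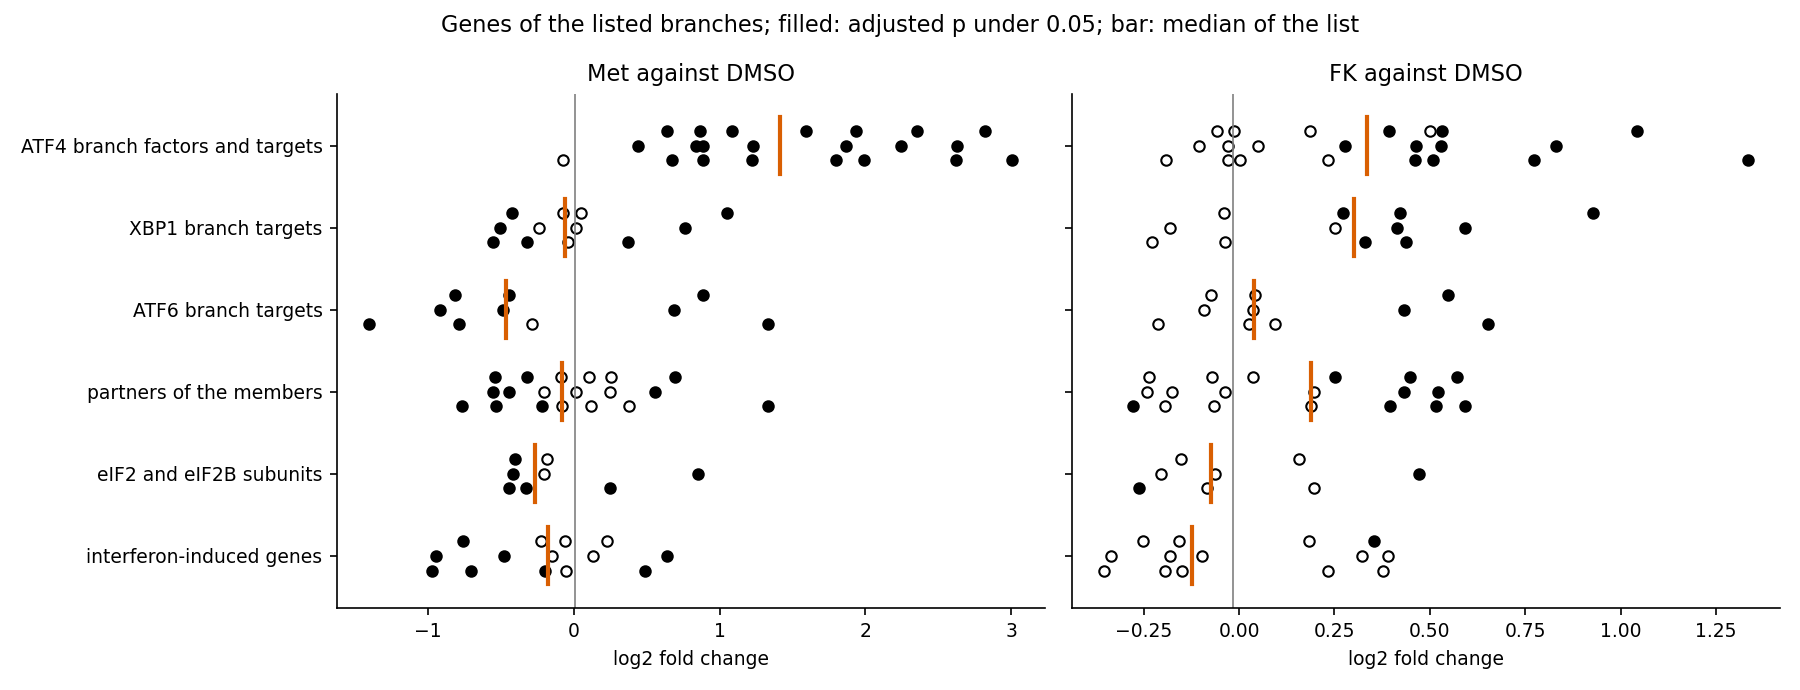
log2 fold changes (horizontal axes, which differ in range) of the genes of 6 lists in Met and in FK against DMSO. Points are genes, filled at an adjusted p under 0.05, coloured bars are list medians and the grey line is the median of all genes tested. In Met the ATF4 branch lies to the right, with a median of 1.41, while the ATF6 branch targets spread from −1.40 to 1.33.

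Interferon-induced genes were followed beside EIF2AK2, which belongs to them. Of 14, 2 rose and 6 fell with Met, against 24.9% and 25.9% of all genes, with a median of −0.17. IFIT2 rose by 0.64 and IFIH1, a sensor of double-stranded RNA, by 0.49, while OAS3 fell by 0.97 and IFIT1 by 0.95. In FK 1 was higher and 0 lower, against 11.3% and 9.84%.

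Genes whose pattern over the 12 libraries was nearest to each member that was a DEG were searched among 11520 genes with a mean of at least 100, by the root mean square difference of log2 values centred over the libraries. For PPP1R15A these were KLF11 (0.121), PRELID3A (0.132) and HEIH (0.146). For ERN1 they were BTG1 (0.137), LURAP1L (0.138) and FAM167A (0.142). ATF6 had the closest neighbours, UHRF1BP1 (0.0436), C20orf194 (0.0516) and ARSD (0.0559). For XBP1 they were SARS (0.0847), a tRNA synthetase, and SLC3A2 (0.0874) and SLC7A5 (0.0918), the chains of an amino acid transporter. SLC3A2 and SLC7A5 are also in the ATF4 list.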

How the data were processed

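RNA from KP4 cells was sequenced in 12 libraries, 3 per treatment. The authors used cutadapt for trimming, STAR for alignment to hg38 and featureCounts for counting pairs, then divided the counts by DESeq2 size factors, and the deposited values are this signal, with no negative values. The annotation and strand setting are not given in the sources used here. Dividing by the smallest step gave whole read pairs (within 0.01) for 100% of the values, with size factors from 0.867 to 1.21 and a median of 34767231 read pairs. Column names gave treatment and replicate. No replicate pair agreed within sampling noise, since chi-square over its degrees of freedom ran from 5.69 to 51.45.

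Comparisons were made with limma-trend (limma 3.58.1, R 4.3.3) on log2 values, with 1 mean per treatment, all 12 libraries in 1 fit and a pseudocount of 1, over 15376 genes averaging 10 or more normalized counts, adjusted per comparison with the Benjamini-Hochberg method. It was tested on simulated data. Alternatives were pseudocounts of 0.1 and 10, other filters, same totals, TMM, edgeR 4.0.16 and DESeq2 1.42.0 on the recovered read pairs, a replicate block, a loess trend (span 0.3) on GC content and length removed, the compared libraries alone, and each library left out. On recovered reads edgeR passed 7803 genes in Met against DMSO, 3023 in FK against DMSO, 7983 in Met+FK against DMSO and 16 in Met+FK against Met, and limma-trend on the deposited values 7823, 3251, 8033 and 15. In the same comparisons DESeq2 passed 7690, 4091, 7890 and 74 genes and the block 9262, 6854, 9402 and 120. In the interaction limma-trend passed 9 genes, edgeR 10, DESeq2 695 and the block 4914. Deviations from group means correlated between same-numbered libraries at 0.25, 0.42 and 0.22 for DMSO and FK, and at 0.17, 0.20 and 0.23 for Met and Met+FK, so those numbers were read as pairs, from the values alone. In the other group pairs at least 1 correlation was under 0.1.

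Levels per kilobase used the canonical transcript of GENCODE 44. The union of exons, and the list counts under other scalings, were added after the data were seen. The members and lists were chosen with earlier results of these data known, the lists from general knowledge. Named are all members, in each list other than markers the 2 genes that Met raised most and the 2 it lowered most against DMSO (on the log2 scale), and the 3 genes nearest in pattern to each member that was a DEG. Promoters are RefSeq's. The interval of a single share was not computed, since replicates carry the error.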

Additional observations from a re-analysis of the deposited data

How the results depend on the processing

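Counts of members that passed changed as follows. A count with no number or share of all genes beside it cannot be read against the background. Asking also for a fold over 1.5 gave 4 in Met against DMSO, 0 in FK against DMSO and 3 in Met against FK. With the replicate block 7 passed in FK against DMSO, 1 in Met+FK against Met and 4 in the interaction, against 44.6%, 0.78% and 32% of all genes. In the group pairs not read as paired it gave 7 in Met and 8 in Met+FK against DMSO, against 9262 and 9402 of the 15376 genes tested. Against FK it gave 7 in Met+FK and 7 in Met, against 8069 and 7296 genes. DESeq2 gave 2 in Met+FK against Met and 1 in the interaction, against 0.597% and 6.2% of the genes it tested. Removing the GC and length trend gave 2 in FK against DMSO and 2 in Met+FK against Met, against 9.4% and 1.07% of all genes. With the block as well it gave 2 in the latter and 1 in the interaction. Without the block, removing the trend gave 8 in Met and 8 in Met+FK against DMSO, 9 in Met+FK against FK and 7 in Met against FK, with 0 in the interaction. The share of all genes was 60.4% in Met+FK against DMSO and 0.529% in the interaction. It is not given for the other comparisons in that fit, so their counts cannot be read against the background. The compared libraries alone gave 0 in FK against DMSO and 1 in Met+FK against Met. With each library left out, the counts ran from 7 to 7 in Met, 0 to 5 in FK and 6 to 6 in Met+FK against DMSO, 0 to 1 in Met+FK against Met, 5 to 6 in Met+FK against FK, 4 to 6 in Met against FK and 0 to 2 in the interaction. EIF2AK2 changed sign with the GC and length trend removed, with or without the block, to −0.19, −0.083 and −0.27 in Met, FK and Met+FK against DMSO, and the interaction of ATF6 became 0.26 with trend and block. Why the trend differs between libraries was not tested. Of 1670 alternative log2 fold changes of members, 1528 kept direction and side of the threshold, 48 gained and 43 lost the call, 44 changed sign with no call in either fit, and 7 changed sign with a call in at least 1 of the 2 fits compared. In values with the trend removed the pairing correlations were 0.159, 0.0964 and 0.0738 for Met and Met+FK, and 0.117, 0.144 and 0.122 for Met and FK, so which group pairs are all over 0.1 depends on the trend. EIF2AK3, with fewest counts, is the member least precisely measured.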
